A study of Arabidopsis thaliana with 24 samples.

Results

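The genes described here are the 47 nuclear genes of Arabidopsis thaliana that encode the light-harvesting antenna, the nuclear subunits of both photosystems and the small subunit of Rubisco. They were taken by locus identifier from a table of 32833 genes, by a rule that uses no measured value, although earlier results of these data were known when it was set. The 47 comprise 6 LHCA genes (antenna of photosystem I), 14 LHCB genes (antenna of photosystem II), 12 PSA genes (photosystem I), 11 PSB genes (photosystem II) and 4 RBCS genes. Of these, 46 had enough counts to be tested, among 20828 genes tested in all. The exception, LHCB1.5 (AT2G34420), had 0 counts in each of the 24 libraries, and 3 counts, the level that a count of 0 still allows by counting error alone, equal 0.219 CPM, that is, read counts scaled to a library of fixed size, in the smallest library. All exon bases of LHCB1.5 lie under opposite-strand exons, and the strand setting of the counting is not given. Its level is therefore uncertain.

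Polyadenylated RNA of whole Columbia-0 seedlings was sequenced in 8 groups of 3 biological replicates. They were the mutant pifq in light with abscisic acid (ABA), pifq in light with mock, pifq in darkness with ABA, pifq in darkness with mock, the wild type (WT) in light with ABA, WT in light with mock, WT in darkness with ABA and WT in darkness with mock. The mutant carries defects in PIF1, PIF3, PIF4 and PIF5, which encode bHLH transcription factors (the labels name no alleles), and the mock solution was ethanol. All seedlings stood on a nylon mesh over sucrose-containing medium at 22 °C after 2 days of cold. Seeds of the dark groups saw light for 2 h, grew in foil for 62 h and then spent 4 days in darkness on ABA or mock plates, whereas the light groups had days of 16 h and nights of 8 h at a photon flux of 10 µmol m-2 s-1, were moved after 72 h and were treated for 5 days. The labels add that these times hold unless otherwise stated, and no ABA dose was found in the sources used here. Light, age at harvest and length of treatment therefore cannot be told apart. In whole seedlings fewer green cells and less RNA per cell cannot be told apart either.

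Light energy is caught by chlorophyll bound to the LHCA and LHCB proteins and passed to the photosystems, which drive electron transport, and Rubisco uses the products to fix CO2. The antenna, many photosystem subunits and the small subunit of Rubisco are encoded in the nucleus, made in the cytosol and imported into plastids. In dark-grown seedlings these genes are held low, PIF transcription factors take part in that repression, and light removes the PIF proteins through phytochromes. ABA is a hormone of seed dormancy and of the response to water deficit.

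Total counts ranged from 13722850 to 17538529 per library. Levels are given in CPM after TMM scaling (trimmed mean of M-values), changes are log2 changes ± standard error from edgeR's quasi-likelihood fit over all 24 libraries, and a gene is called when its Benjamini-Hochberg adjusted p over all genes tested is under 0.05. As a check of the labels, PIF3 stood at 1.67 to 3.1 CPM in pifq dark mock, against 55.9 to 71.2 CPM in WT dark mock, and in each light and treatment setting the pifq libraries lay below the WT libraries for PIF3 and for PIF5, with no overlap. The other pair of mutated genes went the other way in darkness. PIF1 stood at 84.2 to 98.6 CPM in pifq dark mock, against 36.8 to 38.2 CPM in WT dark mock, and PIF4 at 49.0 to 75.2 CPM in pifq dark mock, against 29.8 to 34.5 CPM in WT dark mock. With ABA in darkness both were also higher in every pifq library than in any WT one. In light PIF4 was lower in pifq (105 to 118 CPM in pifq mock, against 214 to 257 CPM in WT mock), while PIF1 was higher without ABA (58.9 to 71.0 CPM in pifq, against 42.4 to 47.1 CPM in WT) and overlapped with it. As no allele is named, counts over a whole gene do not by themselves test the label for PIF1 and PIF4. The 46 genes varied most between replicates in dark WT: their median coefficient of variation was 14.6% in pifq dark ABA, 11.4% in pifq dark mock, 29.5% in WT dark ABA and 27.3% in WT dark mock, against 4.32% to 13.4% in the 4 light groups. Among all tested genes with a group mean of at least 100 CPM the median was 7.67% in WT dark ABA and 5.65% in WT dark mock. It was 7.71% in pifq dark ABA, 7.45% in pifq dark mock and 6.40% to 9.13% in the 4 light groups. Replicate 1 of WT dark ABA stood apart. It held 4212 counts of LHCB1.1, against 149 and 104 in replicates 2 and 3, and 3994 counts of LHCB2.2, against 533 and 735. Because all libraries share 1 estimate of the spread, the spread of the dark libraries enters the errors of the light comparisons, and where this ends or makes a call it is said beside the result.

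The 47 genes took 7.98% ± 0.269 (SD, n = 3) of all counts in pifq light ABA, 7.26% ± 0.565 in pifq light mock, 4.42% ± 0.510 in pifq dark ABA and 4.07% ± 0.468 in pifq dark mock. In WT they took 6.89% ± 0.0651 in light ABA, 7.67% ± 0.0621 in light mock, 1.1% ± 0.257 in dark ABA and 1.32% ± 0.345 in dark mock. Dark pifq thus lay between dark WT and both genotypes in light. In the plot of summed levels by class no dark pifq library overlaps dark WT or the light groups for LHCA, LHCB, PSA and PSB, whereas the RBCS sums of pifq dark ABA (2649 to 3484 CPM) overlap those of WT dark ABA (1617 to 2727 CPM). Summed LHCB levels were 16533 ± 3047 CPM in pifq dark mock, against 4336 ± 1554 CPM in WT dark mock, while summed RBCS levels were 3738 ± 354 CPM in pifq dark mock, against 2408 ± 559 CPM in WT dark mock. Per kilobase of exon, LHCB1.3 had the highest level of the 47 genes in all 8 groups, with 3971 ± 628 CPM per kb in pifq dark mock and 1665 ± 604 in WT dark mock. The lowest level per kilobase among the 46 detected genes was that of LHCB4.3 in all groups but WT dark ABA, where RBCS1B, at 2.53 ± 1.86 CPM per kb, lay below LHCB4.3 at 6.01 ± 0.269.

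**Figure D1:**
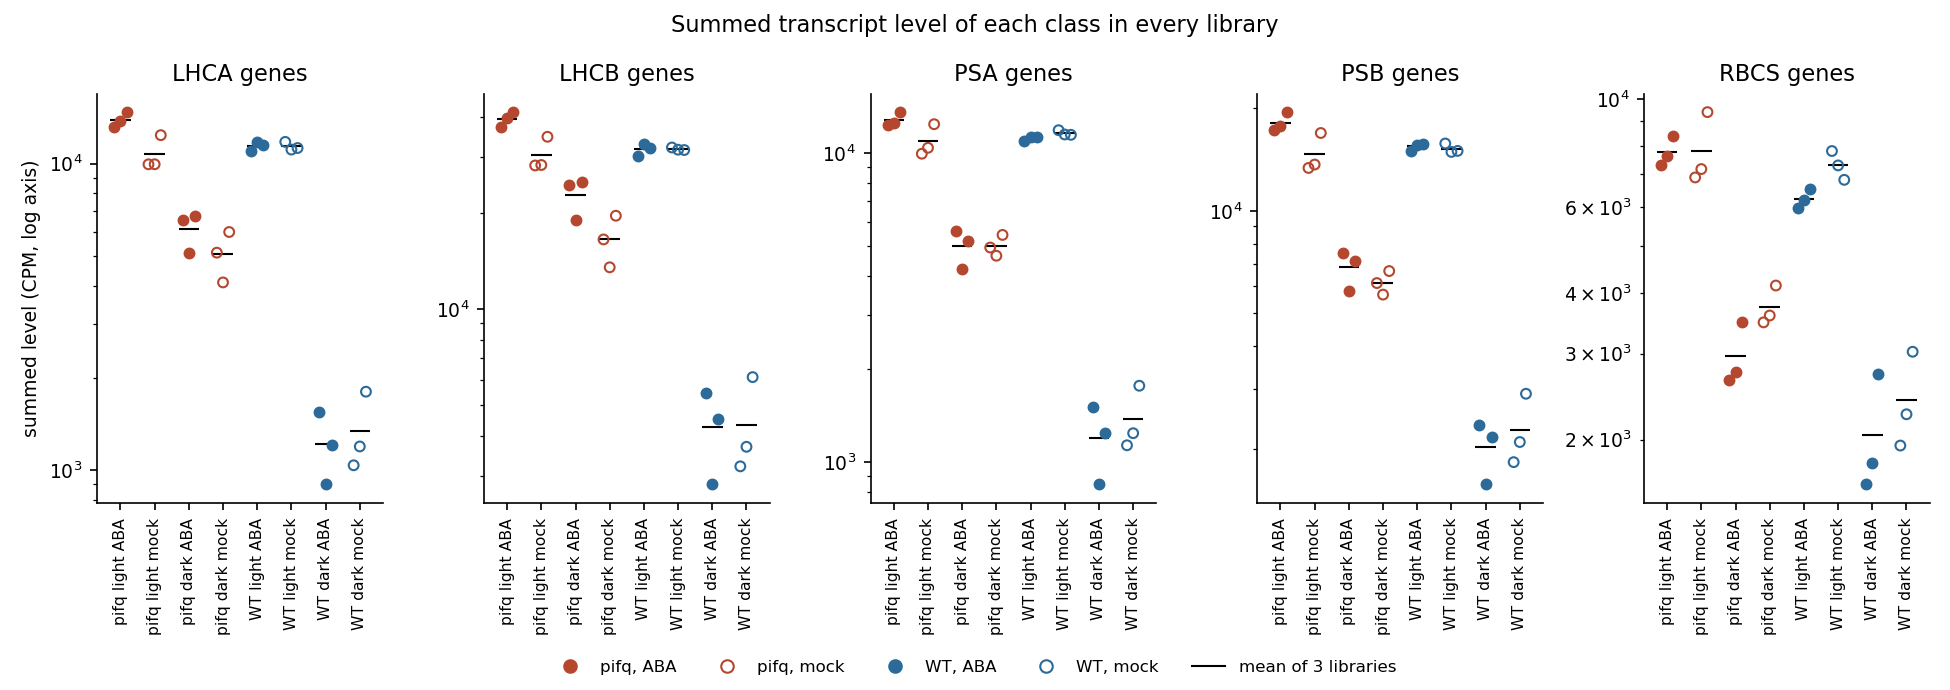
Summed level of the LHCA, LHCB, PSA, PSB and RBCS genes in every library (CPM, log axis), by group. Points are libraries (filled for ABA, open for mock) and lines are means of 3; the LHCB sum lies at 13498 to 19591 CPM in pifq dark mock and at 3207 to 6108 CPM in WT dark mock.

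Promoters are shown for 4 genes whose windows overlap no other annotated gene: RBCS2B, which did not pass between pifq and WT in dark mock, PSBQ-2 and LHCA4, which rose there, and LHCB4.3, which fell. They were chosen after the values were seen, so that genes with unlike changes can be read side by side. The windows are the 300 bases before the annotated gene start in TAIR10.1, with RefSeq's annotation, written 5′ to 3′ on the gene's strand. Capitals mark 4 short motifs searched on both strands: the G-box CACGTG, which PIF and other bHLH or bZIP factors can bind, the related PBE-box CACATG, the I-box core GATAAG known from light-regulated promoters, and CCAATC. The motifs share no position in these windows. RBCS2B (chr5:15382072-15382371, minus strand) holds a G-box at -123 and GATAAG at -146, -115 and -94, the first base of each match being counted back from the gene start. PSBQ-2 (chr4:2673244-2673543, minus strand), whose product belongs to the oxygen-evolving complex, holds G-boxes at -145 and -77, GATAAG at -15 and CCAATC at -246. LHCA4 (chr3:17495034-17495333, minus strand) holds a G-box at -88 and CCAATC at -144 and -48. LHCB4.3 (chr2:16745328-16745627, plus strand) holds none of the 4 motifs. Many other members hold none either, among them LHCB1.1 and RBCS1B, which rose between pifq and WT in dark mock.
RBCS2B: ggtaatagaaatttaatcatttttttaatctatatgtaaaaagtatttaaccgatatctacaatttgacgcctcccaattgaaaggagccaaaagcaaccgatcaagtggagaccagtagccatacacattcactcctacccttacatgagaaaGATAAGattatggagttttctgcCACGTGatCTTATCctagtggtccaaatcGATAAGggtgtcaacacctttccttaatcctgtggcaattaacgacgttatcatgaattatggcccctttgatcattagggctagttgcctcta
PSBQ-2: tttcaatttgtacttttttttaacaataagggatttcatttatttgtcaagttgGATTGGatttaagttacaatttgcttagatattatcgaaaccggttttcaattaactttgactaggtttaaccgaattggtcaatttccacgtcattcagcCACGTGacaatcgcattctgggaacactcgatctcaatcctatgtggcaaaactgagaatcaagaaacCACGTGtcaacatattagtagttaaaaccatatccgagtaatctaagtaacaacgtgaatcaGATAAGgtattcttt
LHCA4: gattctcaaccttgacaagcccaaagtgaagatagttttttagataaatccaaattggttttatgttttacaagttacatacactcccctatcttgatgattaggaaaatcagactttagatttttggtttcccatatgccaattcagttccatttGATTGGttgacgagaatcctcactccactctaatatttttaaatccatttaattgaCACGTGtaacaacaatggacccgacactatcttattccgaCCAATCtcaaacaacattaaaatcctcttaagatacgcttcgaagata
LHCB4.3: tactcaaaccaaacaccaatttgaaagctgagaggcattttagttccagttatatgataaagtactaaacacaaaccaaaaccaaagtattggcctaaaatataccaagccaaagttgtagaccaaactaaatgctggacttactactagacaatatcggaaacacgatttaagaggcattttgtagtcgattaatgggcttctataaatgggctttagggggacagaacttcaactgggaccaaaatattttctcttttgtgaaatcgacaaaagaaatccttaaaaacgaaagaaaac

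Over all 47 genes, a G-box was found in 10 windows (21.3%), against 1945 of the windows of 27443 nuclear protein-coding genes (7.09%). CCAATC was found in 13 (27.7%, against 12.2%), of which 7 belonged to LHCB and 3 to LHCA genes and 0 to RBCS genes. GATAAG was found in 10 (21.3%, against 14.5%) and CACATG in 6 (12.8%, against 13.1%). The G-box carriers were LHCA4, LHCB2.3, LHCB4.1, LHCB6, PSAE-2, PSAH2, PSBQA, PSBQ-2, PSBTN and RBCS2B. A match is a description of letters, and binding was not measured.

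In darkness without ABA, pifq was set against WT, which asks how these genes stand without the 4 PIF factors. The antenna and photosystem genes were higher in pifq almost throughout: 44 of the 46 genes rose and 1 fell, where 44.4% of all genes tested were called, 23.5% rose and 20.9% fell. The median change was 1.78 on the log2 scale for the 46 genes and -0.00015 for all genes tested. By class, the median was 2.48 for the LHCB genes, 1.92 for PSA, 1.69 for PSB, 1.66 for LHCA and 0.70 for RBCS, so the antenna of photosystem II had the highest median and the Rubisco genes the lowest. In 44 genes every pifq library lay above every WT library, and in 1 every one lay below, where the groups did not overlap for 56.9% of all genes.

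Among the antenna genes, LHCB1.1 (AT1G29920), a copy of the main trimeric antenna protein of photosystem II, stood at 1068, 679 and 1119 CPM in pifq dark mock, against 44.7, 42.4 and 140 CPM in WT dark mock. It rose by 3.66 ± 0.90 (adjusted p = 0.00279), with no overlap between the groups and with replicate 3 of WT well above the other WT libraries. LHCB2.2 (AT2G05070), the partner of LHCB1 in those trimers, had 885, 549 and 775 CPM in pifq, against 57.5, 51.3 and 92.7 CPM in WT, and rose by 3.46 ± 0.50 (adjusted p = 2.06e-05). Of the antenna of photosystem I, LHCA1 (AT3G54890) had 943, 713 and 1246 CPM in pifq, against 95.4, 97.9 and 183 CPM in WT, and rose by 2.95 ± 0.34. LHCA5 (AT1G45474) and LHCA6 (AT1G19150), minor proteins that link photosystem I to the NDH complex, rose least in that class, by 1.1 ± 0.18 and 1.11 ± 0.20. The monomeric antenna genes LHCB4.1 and LHCB4.2 (AT3G08940) rose by 1.3 ± 0.14 and 1.5 ± 0.17, and LHCB5 and LHCB6, which encode the other monomeric antenna proteins, by 1.67 ± 0.20 and 2.32 ± 0.21.

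LHCB4.3 (AT2G40100) went the other way. This gene, also named LHCB8, is expressed at a low level and encodes a protein related to CP29. It had 7.05, 6.96 and 7.76 CPM in pifq dark mock, against 11.7, 11.0 and 12.5 CPM in WT dark mock, and fell by 0.69 ± 0.15 on the log2 scale (adjusted p = 7.73e-04). All 3 pifq libraries lay below all 3 WT libraries.

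All 12 photosystem I genes rose. PSAH2 (AT1G52230), a subunit at the site where the mobile antenna docks, had 211, 217 and 258 CPM in pifq, against 33.6, 27.5 and 41.1 CPM in WT, and rose by 2.75 ± 0.29. PSAE-2 (AT2G20260), a copy of a stromal subunit at the ferredoxin side, rose least (1.34 ± 0.17), with 228, 221 and 325 CPM in pifq, against 75.7, 90.5 and 139 CPM in WT. Its sister copy PSAE-1 rose by 2.35 ± 0.24. All 11 photosystem II genes rose as well. PSBQ-2 (AT4G05180) had 446, 409.7 and 493 CPM in pifq, against 68.4, 81.0 and 119.6 CPM in WT, and rose by 2.33 ± 0.17. PSBS (AT1G44575), the sensor protein of energy-dependent quenching, rose least (0.83 ± 0.22), with 174, 172 and 156 CPM in pifq and 81.6, 78.0 and 123 CPM in WT. The groups do not overlap for any of these 5 genes.

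The 4 RBCS genes ranged from 0.23 to 2.69. RBCS1B (AT5G38430) had 170.2, 212 and 159 CPM in pifq dark mock, against 25.1, 23.3 and 35.4 CPM in WT dark mock, and rose by 2.69 ± 0.31 (adjusted p = 1.70e-06). RBCS3B (AT5G38410) rose by 0.76 ± 0.16 and RBCS1A (AT1G67090), the copy with the highest level per kilobase, by 0.64 ± 0.18. RBCS2B (AT5G38420) had 580.2, 637 and 772 CPM in pifq and 476, 549.7 and 669 CPM in WT, a change of 0.23 ± 0.19 that did not pass the test (adjusted p = 0.340). With the replicate number as a block in the 6 libraries compared, where same-numbered libraries deviated together, RBCS2B rose by 0.24 ± 0.08. Markers of other cells moved too: the 11 root markers, all with counts, summed to 228 to 265 CPM in pifq dark mock and 368 to 404 CPM in WT dark mock (7 of 11 fell), and the 5 guard cell markers to 128 to 133 CPM in pifq dark mock and 62.0 to 71.1 CPM in WT dark mock (5 of 5 rose). Their part in the result was not tested.

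With ABA the same comparison in darkness gave 43 genes that rose and 2 that fell in pifq, where 39.6% of all genes tested were called (22.2% rose and 17.5% fell), and the median change was 2.06, against 0.05 for all genes. The LHCB genes again had the highest median, 3.04, and the RBCS genes the lowest, 0.51. LHCB1.2 (AT1G29910) had 1816, 1285 and 2241 CPM in pifq dark ABA, against 226, 15.7 and 49.7 CPM in WT dark ABA, and rose by 4.2 ± 0.67. The groups do not overlap, as was so for 46.9% of all genes, although replicate 1 of WT lies far above the other WT libraries. LHCB4.3 fell by 0.65 ± 0.16 and RBCS2B by 0.58 ± 0.19, the groups of RBCS2B not overlapping, with 238, 290 and 315 CPM in pifq and 340.1, 344 and 575 CPM in WT. In a fit of only the 6 libraries compared, RBCS2B no longer passed (-0.61 ± 0.22), nor did RBCS1A, which rose by 0.81 ± 0.18 in the fit of all libraries. RBCS3B had 359, 323 and 409 CPM in pifq and 265, 263 and 416 CPM in WT, overlapping groups with a change of 0.21 ± 0.16. Without replicate 1 of WT dark ABA, which stands apart, 43 genes rose and 2 fell. The change of LHCB1.2 was then 5.77 ± 0.59. Of the 11 root markers 5 rose and 5 fell in this comparison, and of the 5 guard cell markers 3 rose and 1 fell. Their part in the result was not tested.

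Light was set against darkness within each genotype, with the differences in age and treatment time that the protocol carries. In WT without ABA 45 of the 46 genes rose and 1 fell, where 64.9% of all genes were called (32.7% rose and 32.2% fell). The median change of the 46 genes was 2.99, and by class it was 3.80 for LHCB, 3.16 for PSA, 3.02 for LHCA, 2.88 for PSB and 1.66 for RBCS. LHCB1.1 had 3192, 2870.2 and 3240 CPM in WT light mock, against 44.7, 42.4 and 140 CPM in WT dark mock, and rose by 5.36 ± 0.97 (adjusted p = 8.79e-05). RBCS1B, with 624, 525 and 464 CPM in light, against 25.1, 23.3 and 35.4 CPM in darkness, rose by 4.27 ± 0.33, and RBCS3B (1.93 ± 0.17), RBCS2B (1.4 ± 0.19) and RBCS1A (1.37 ± 0.19) rose as well. PSAN (AT5G64040), a lumenal subunit of photosystem I, rose by 4.03 ± 0.19 and PSBO2, a copy of the manganese-stabilising protein, by 4.07 ± 0.24. LHCB4.3 fell by 1.04 ± 0.15, with 5.98, 5.42 and 5.70 CPM in light, against 11.7, 11.0 and 12.5 CPM in darkness and no overlap. Between these groups 72% of all genes did not overlap. With ABA in WT the counts were also 45 and 1, where 62.6% of all genes were called (31.5% rose and 31.1% fell), and the median was 3.20. Of the 11 root markers 6 fell and 1 rose in WT mock, their sum being 195 to 213 CPM in light and 368 to 404 CPM in darkness, and 5 of 5 guard cell markers rose (143 to 157 CPM in light and 62.0 to 71.1 CPM in darkness). Their part in the result was not tested.

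In pifq the median light response, taken over all classes together, was smaller than in WT. Without ABA 41 genes rose, where 57.3% of all genes were called (29% rose), with a median of 1.19, and with ABA 42 rose (56.1%, 25.9% rose) with a median of 1.27. The RBCS genes were split with ABA. RBCS2B (2.33 in pifq, against 1.56 in WT) and RBCS3B (2.18 in pifq, against 1.93 in WT) rose more in pifq. RBCS1A (0.84 in pifq, against 1.36 in WT) and RBCS1B (4.69 in pifq, against 6.55 in WT) rose less. The difference between the genotypes in the light response with ABA was not tested. Of the 5 genes that did not pass in pifq mock, 4 were LHCB genes (LHCB1.1, LHCB1.3, LHCB1.4 and LHCB4.3), and the fifth was PSAG (AT1G55670) of photosystem I. LHCB1.3 had 5322, 5492 and 6499.5 CPM in pifq light mock and 4564, 4323 and 5765 CPM in pifq dark mock, overlapping groups with a change of 0.24 ± 0.20. PSAG had 207, 216 and 255 CPM in light and 229, 195 and 201 CPM in darkness (0.12 ± 0.19). In mock 2 of the 11 root markers rose and 5 fell, and 3 of the 5 guard cell markers rose and 1 fell. The highest change was that of LHCA5, which had 113, 112 and 144 CPM in light, against 24, 28.9 and 24.3 CPM in darkness, and rose by 2.26 ± 0.17. RBCS1B (2.25 ± 0.30), PSBS (2.22 ± 0.23) and PSAN (2.17 ± 0.18) rose next. LHCB1.1 had 3221, 3064 and 3917 CPM in light and 1068, 679 and 1119 CPM in darkness, with no overlap, and its change of 1.83 ± 0.83 did not pass in the fit of all libraries but rose by 1.82 ± 0.20 in the fit of the 6 libraries compared. Between these groups 62.7% of all genes did not overlap.

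The difference between the genotypes in this light response was tested as an interaction (pifq minus WT). It was negative for 42 genes and positive for 1 of the 46, where 18.4% of all genes were called (11.8% negative and 6.64% positive), with a median of -1.83. The lowest values were -3.55 ± 0.66 for LHCB2.2 and -3.53 ± 1.17 for LHCB1.1. LHCB4.3 was the positive one, at 0.73 ± 0.22. RBCS2B at -0.36 ± 0.27 and RBCS1A at -0.53 ± 0.26 did not pass. Of the other-cell markers, 4 of 5 guard cell markers were negative in this interaction and 0 of 11 root markers were called; the guard cell sums were 132 to 149 CPM in pifq light mock and 128 to 133 CPM in pifq dark mock, against 143 to 157 CPM in WT light mock and 62.0 to 71.1 CPM in WT dark mock. Their part in the result was not tested. For LHCB1.1 the call was lost when genes with low counts were kept in the fit.

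**Figure D2:**
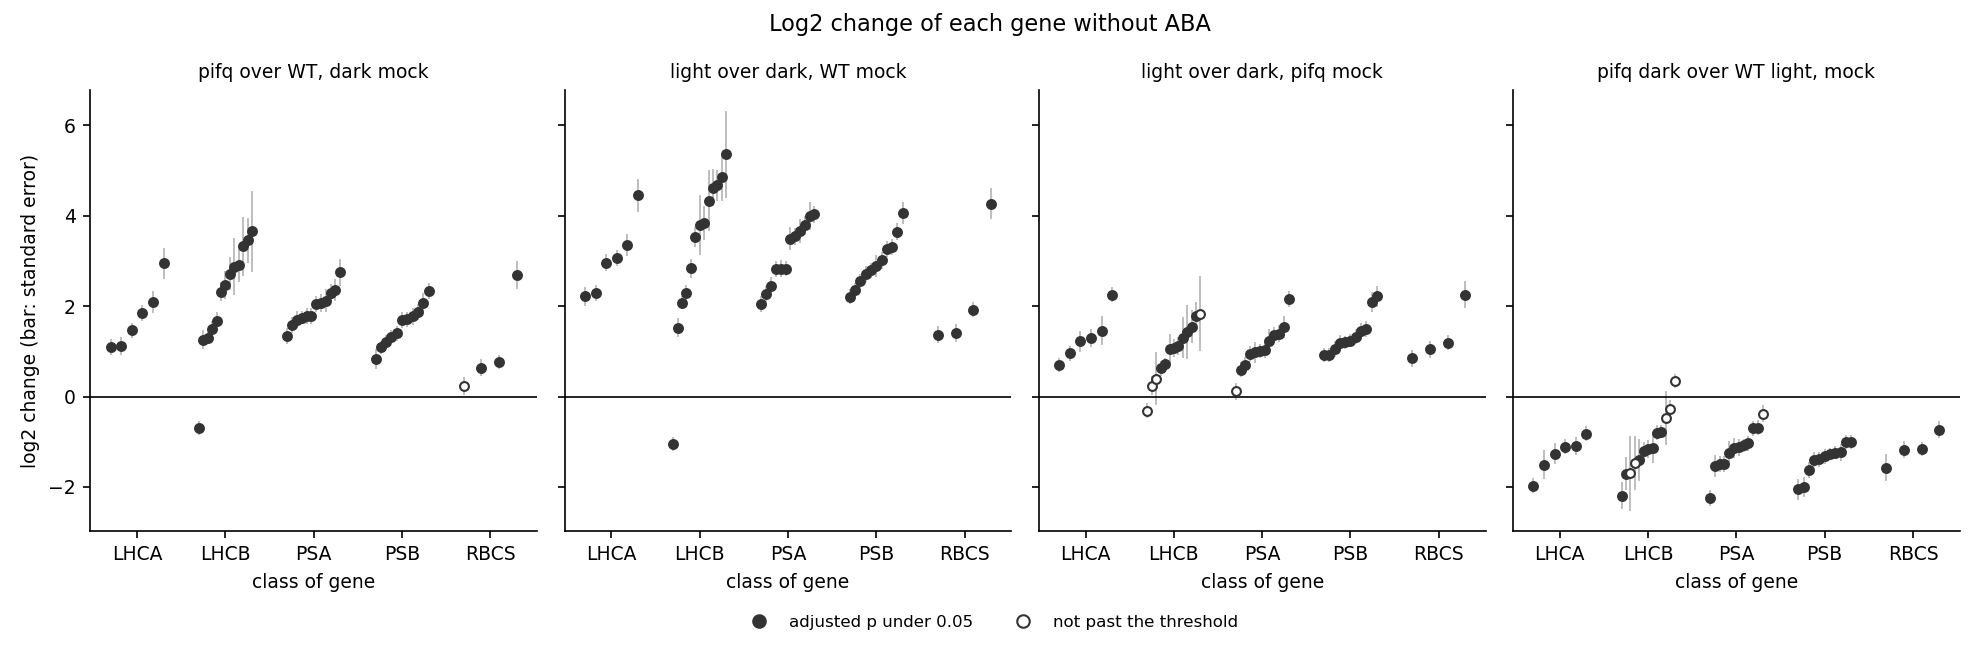
Log2 change of each of the 46 genes, by class, in 4 comparisons without ABA: pifq over WT in darkness, light over darkness in WT, light over darkness in pifq, and dark pifq over light WT. Points are genes, bars are standard errors, and filled points passed an adjusted p of 0.05; the LHCB medians are 2.48, 3.80, 1.08 and -1.17.

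Most of these genes did not reach the level of light-grown WT in dark pifq. Without ABA, 40 of the 46 genes were lower in dark pifq than in WT light and none of the 6 others passed, where 47.9% of all genes were called (24.6% lower); the median was -1.22. PSAN was lowest, at -2.24 ± 0.18, with 201, 199 and 220.4 CPM in pifq dark mock, against 1033, 895 and 996 CPM in WT light mock. LHCB2.3 followed at -2.20 ± 0.30. Close to the WT light level lay LHCB1.3, with 4564, 4323 and 5765 CPM in pifq dark mock and 5758, 6098 and 5832 CPM in WT light mock (-0.27 ± 0.20), and PSAG (-0.38 ± 0.19). LHCB1.1 had 1068, 679 and 1119 CPM in pifq dark mock, against 3192, 2870.2 and 3240 CPM in WT light mock, with no overlap. Its change of -1.70 ± 0.82 did not pass in the fit of all libraries, whose error takes in the spread of the dark WT libraries, but was -1.70 ± 0.18 and passed in the fit of the 6 libraries compared. There, 44 genes were lower, where 49% of all genes were called (24.8% lower), the added ones being LHCB1.1, LHCB1.2 (-1.47 ± 0.26), LHCB1.4 (-0.48 ± 0.13) and PSAG (-0.38 ± 0.10), while LHCB1.3 and LHCB4.3 (0.35 ± 0.13) did not pass. In 44 of the 46 genes every pifq library lay below every WT library and in 1, LHCB4.3, above, where the groups did not overlap for 57.5% of all genes. Of the other-cell markers, 4 of 11 root markers were lower and 1 higher, and 2 of 5 guard cell markers were lower and 1 higher.

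In light the median change between the genotypes was near 0 without ABA. There, 0 of the 46 genes were called by edgeR's quasi-likelihood test between pifq and WT, where 10.6% of all genes were, 1 had an unadjusted p under 0.05, and DESeq2 called 0 higher and 0 lower. A p that misses the threshold does not show equal levels; the changes ran from -0.41 to 0.68 with a median of -0.07. RBCS1B, at the upper end (0.68 ± 0.29), had 690, 752 and 1139 CPM in pifq light mock, against 624, 525 and 464 CPM in WT light mock, with every pifq library above every WT library. The groups did not overlap for 32.4% of all genes. For counts at an unadjusted p, here and elsewhere, the share of all genes is not given, so they are not set against all genes.

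With ABA in light the result depended on the fit. In the fit of all libraries 0 genes were called (1.28% of all genes were), 3 had an unadjusted p under 0.05, DESeq2 called 1, 1 was called without replicate 2 of WT dark ABA, and all 46 log2 changes were above 0, with a median of 0.24, against -0.01 for all genes. In 41 of the 46 genes every pifq library lay above every WT library, where the groups did not overlap for 17.9% of all genes. With the replicate number as a block in the 6 libraries compared, where same-numbered libraries deviated together (r between 0.338 and 0.513), 44 genes rose and 0 fell, where 20.9% of all genes were called and 12.5% rose. The labels give replicate numbers and no pairing, which is read here from these same data. Without the block, the same 6 libraries gave 3 calls, all higher, where 0.824% of all genes were called (0.468% higher): LHCA6, LHCB1.4 and RBCS3B. LHCB1.4 had 3595, 4271 and 3813 CPM in pifq light ABA, against 2008, 2494 and 1896 CPM in WT light ABA, a blocked change of 0.88 ± 0.05. LHCA6 had 226, 202 and 248 CPM in pifq, against 149, 124 and 142 CPM in WT (0.71 ± 0.05 with the block), and RBCS3B 1545, 1668 and 1746 CPM in pifq, against 1146, 1217 and 1224 CPM in WT (0.47 ± 0.04). These 3 pairs of groups do not overlap. The remaining blocked changes were small, such as 0.36 ± 0.04 for LHCA1, 0.16 ± 0.04 for PSAO and 0.22 ± 0.05 for PSBP-1, and LHCB4.3 (0.21 ± 0.14) and PSBQ-2 (0.07 ± 0.05) did not pass.

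**Figure D3:**
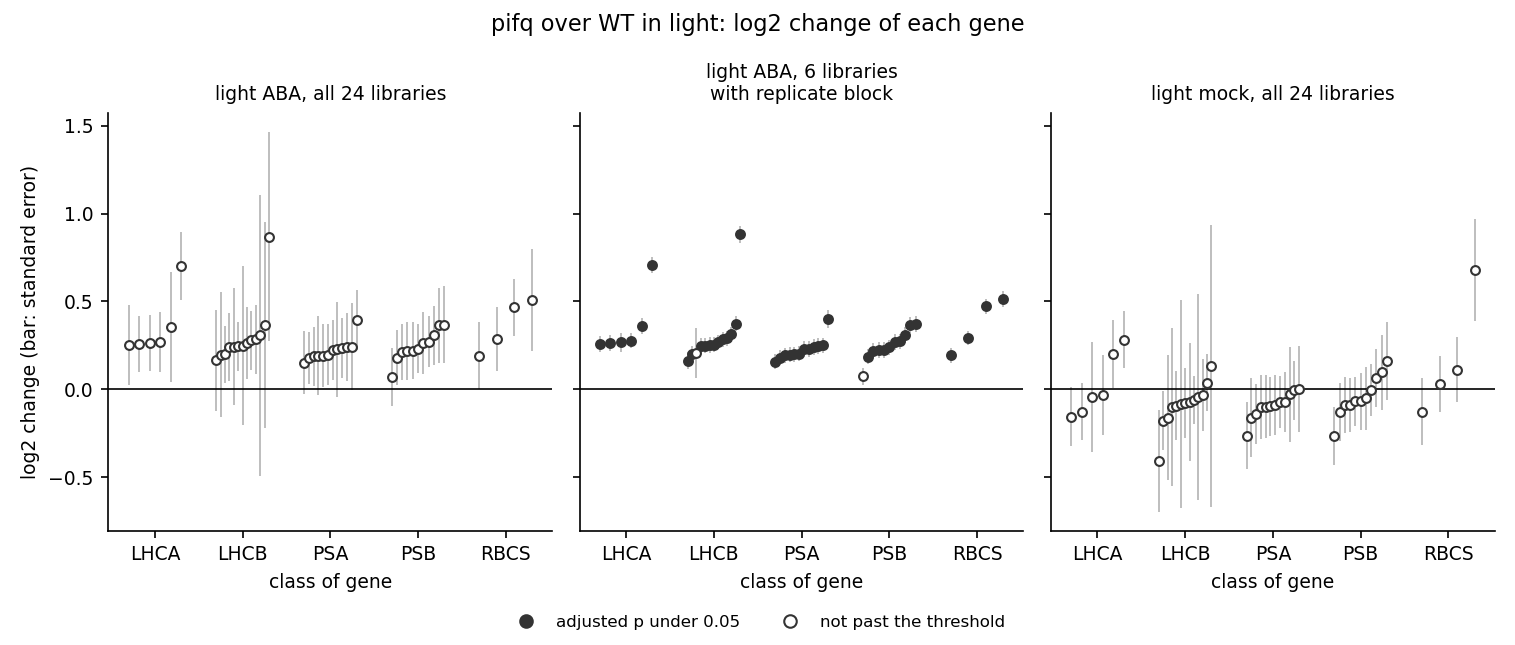
Log2 change of each of the 46 genes in pifq over WT in light, by class: with ABA in the fit of all 24 libraries, with ABA in the 6 libraries compared with a replicate block, and with mock in the fit of all libraries. Bars are standard errors and filled points passed an adjusted p of 0.05 (0, 44 and 0 genes); with ABA all points of the left panel lie above 0, at a median of 0.24.

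In the fit of all libraries a smaller share of the 46 genes than of all genes was called in each ABA comparison. The 4 largest called changes there were falls of RBCS genes in darkness. In pifq light the share of the 46 genes depended on the fit, as given below. In WT darkness 6 of the 46 genes fell and the other 40 did not pass, where 40.3% of all genes were called (17.5% fell), with a median of -0.15. RBCS1B had 3.49, 2.09 and 8.78 CPM in WT dark ABA, against 25.1, 23.3 and 35.4 CPM in WT dark mock, and fell by 2.56 ± 0.35 (adjusted p = 9.98e-06). The groups do not overlap, as was so for 51.6% of all genes. The other 5 were PSAK of photosystem I (-0.73 ± 0.25), RBCS3B (-0.64 ± 0.16), PSBQA (-0.55 ± 0.17), PSBTN (-0.49 ± 0.18) and LHCB4.3 (-0.43 ± 0.15). Of the 46 genes, 3 had every ABA library below every mock library and 0 had every one above. Some of the 6 falls thus came with overlapping libraries. The errors of the antenna genes were wide: LHCB2.1 had 283, 69.5 and 88.0 CPM in WT dark ABA and 74.6, 77.5 and 119 CPM in WT dark mock (0.70 ± 0.36). Without replicate 1 of WT dark ABA 18 genes fell. Without replicate 2 of that group 3 fell and 2 rose, and without replicate 3 of WT dark mock 2 fell and 3 rose. For counts with single libraries left out, here and elsewhere, the share of all genes called is not given. Such counts are therefore not set against all genes.

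In pifq darkness 4 genes fell and 4 rose, where 48.6% of all genes were called (22.7% fell and 26% rose). RBCS1B had 16.7, 28.1 and 28.4 CPM in pifq dark ABA, against 170.2, 212 and 159 CPM in pifq dark mock, and fell by 2.88 ± 0.32 (adjusted p = 5.30e-07). RBCS2B had 238, 290 and 315 CPM with ABA, against 580.2, 637 and 772 CPM with mock, and fell by 1.24 ± 0.19. RBCS3B had 359, 323 and 409 CPM with ABA, against 781, 835 and 874 CPM with mock, and fell by 1.19 ± 0.16. The groups do not overlap for these 3 genes, as was so for 55.2% of all genes. The 3 genes lie close together on chromosome 5 (chr5:15376988-15385320 in TAIR10.1). RBCS1A, on chromosome 1, had 2034, 2111 and 2732 CPM with ABA and 1948, 1910 and 2337 CPM with mock, a change of 0.15 ± 0.18 that did not pass. LHCB4.3 fell by 0.39 ± 0.16. The genes that rose were LHCB2.1 (0.89 ± 0.36), LHCB4.2 (0.53 ± 0.17), LHCB1.3 (0.51 ± 0.21) and PSBR (0.39 ± 0.14), a count that ranged from 0 to 8 as single libraries were left out (0 without replicate 1 of pifq dark ABA or replicate 2 of pifq dark mock, 1 without replicate 3 of pifq dark ABA, 2 without replicate 1 of pifq dark mock or any light library but replicate 3 of pifq light mock, and 8 without replicate 1 of WT dark ABA). PSBR (AT1G79040), a small subunit near the oxygen-evolving complex, had 964, 722 and 921 CPM with ABA and 661, 606 and 716 CPM with mock.

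**Figure D4:**
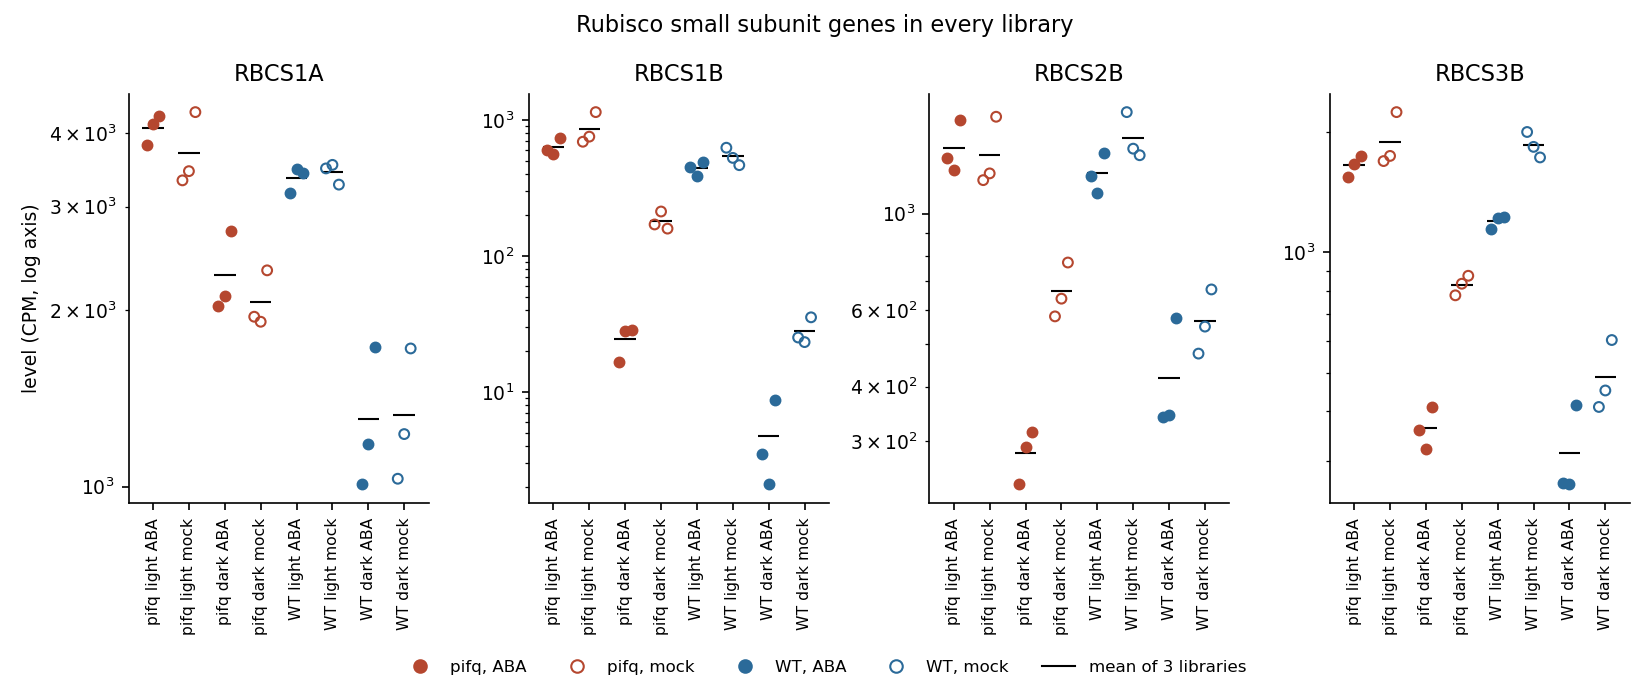
Levels of the 4 RBCS genes in every library (CPM, log axis), by group. Points are libraries (filled for ABA, open for mock) and lines are means of 3; RBCS1B lies at 16.7, 28.1 and 28.4 CPM in pifq dark ABA and at 170.2, 212 and 159 CPM in pifq dark mock, while its lowest light library has 387 CPM.

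In light, RBCS3B alone was called in WT. It had 1146, 1217 and 1224 CPM in WT light ABA, against 2001, 1837 and 1728 CPM in WT light mock, and fell by 0.63 ± 0.16, where 40% of all genes were called (19% fell). Without replicate 3 of WT dark mock 2 genes fell. In the fit of the 6 libraries compared, 7 genes fell and LHCB1.1 rose (0.26 ± 0.07), where 39.3% of all genes were called (20.1% fell and 19.2% rose). Among the 7, LHCB1.4 was lowest, at -0.72 ± 0.11, with 2008, 2494 and 1896 CPM with ABA, against 3164, 3723 and 3446 CPM with mock. PSAE-2 fell by 0.40 ± 0.09, PSBQA by 0.32 ± 0.08 and LHCB4.1 by 0.30 ± 0.07 in that fit.

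In pifq light 6 genes rose with ABA, where 46.7% of all genes were called (23.7% rose), with a median of 0.30 for the 46 genes. Of the 46 log2 changes 43 were above 0 and 3 below. In 27 genes every ABA library lay above every mock library, and in 0 every one lay below. Of all 20828 genes tested 5555 lay above and 5590 below in this way. LHCA6 (0.63 ± 0.19) and LHCB4.2 (0.56 ± 0.17) rose most, followed by PSAG (0.48 ± 0.19), PSAD-2 (0.47 ± 0.17), LHCA3 (0.46 ± 0.17) and PSBR (0.35 ± 0.14). LHCB4.2, a copy of CP29, had 2043, 2129 and 2303 CPM in pifq light ABA, against 1353, 1343 and 1695 CPM in pifq light mock. The count was 2 with library totals in place of TMM scaling, and 15 in the fit of the 6 libraries compared, where 42.5% of all genes were called (20.9% rose). It was 11 without replicate 3 of pifq light mock or replicate 1 of WT dark ABA, 2 without replicate 1 of pifq light mock or replicate 2 or 3 of pifq light ABA, and 1 without replicate 2 of pifq light mock. The 4 RBCS genes did not pass in pifq light, with RBCS1B at 595, 561 and 733 CPM with ABA and 690, 752 and 1139 CPM with mock (-0.45 ± 0.29).

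The ABA response was tested between light and darkness as an interaction (light minus dark), with the differences in age and treatment time that the protocol carries. In pifq it was positive for RBCS1B (2.43 ± 0.42), RBCS2B (1.29 ± 0.27) and RBCS3B (0.99 ± 0.23), where 18.7% of all genes were called (9.02% positive), and in WT for RBCS1B (2.28 ± 0.46), where 11.9% were (5.89% positive). Without replicate 1 of WT dark ABA the WT count was 5. Between the genotypes (pifq minus WT) the ABA response was called for 0 of the 46 genes by edgeR in darkness (11.4% of all genes) and for 0 in light (0.216%), with 4 and 0 genes at an unadjusted p under 0.05. DESeq2 called 1 and 0. In darkness the lowest value was that of RBCS2B (-0.81 ± 0.27), and the count was 8 higher and 1 lower without replicate 1 of WT dark ABA and 1 without replicate 1 of WT dark mock. Under ABA the 7 tested seed markers, of 8 listed, also rose in all 4 settings: their list summed to 2925 to 5056 CPM in pifq dark ABA, against 10.2 to 46.1 CPM in pifq dark mock, and to 1679.5 to 5763 CPM in WT dark ABA, against 9.13 to 50.2 CPM in WT dark mock. In light the sums were 869 to 5085 CPM in pifq ABA, against 2.77 to 10.9 CPM in pifq mock, and 469 to 3026 CPM in WT ABA, against 3.24 to 47.5 CPM in WT mock, where SESA3 had no count. Root markers were lower under ABA in 7 of 11 in WT darkness (199 to 304 CPM in ABA, against 368 to 404 CPM in mock), 4 in pifq darkness (131 to 214 CPM in ABA, against 228 to 265 CPM in mock), 4 in WT light (124 to 186 CPM in ABA, against 195 to 213 CPM in mock) and 3 in pifq light (115 to 125 CPM in ABA, against 139 to 150.1 CPM in mock), and 4 were higher in pifq darkness and 1 in WT light. Of the 5 guard cell markers 2 were higher in WT darkness (96.7 to 108 CPM in ABA, against 62.0 to 71.1 CPM in mock). In each other setting 3 were lower and 1 higher, with sums of 119.6 to 122 CPM in pifq dark ABA, against 128 to 133 CPM in pifq dark mock, 109 to 126 CPM in pifq light ABA, against 132 to 149 CPM in pifq light mock, and 109 to 116 CPM in WT light ABA, against 143 to 157 CPM in WT light mock. In the ABA by light interaction 4 guard cell markers were negative in WT and 1 was positive in pifq. Of the 11 root markers 3 were positive and 2 negative there in WT, and 1 was positive and 2 negative in pifq. In the ABA by genotype interaction in darkness 4 root markers were positive and 1 negative, and 2 guard cell markers were negative. Their part in the ABA results was not tested.

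The share that each copy took of its family's counts (mean ± SD of 3 libraries, not corrected for length, with no test) also varied between the groups. Of the LHCB1 counts, LHCB1.3 made 36.3% ± 0.228 in pifq light mock, 51.2% ± 3.19 in pifq dark mock, 36.8% ± 0.431 in WT light mock and 80.9% ± 3.20 in WT dark mock. The LHCB1 shares leave out LHCB1.5, which had 0 counts and whose level is uncertain. LHCB1.1 made 9.91% ± 1.49 in pifq dark mock, against 2.74% ± 0.937 in WT dark mock. LHCB1.1, LHCB1.2 and LHCB1.3 lie close together on chromosome 1 (chr1:10472280-10479114 in TAIR10.1), and LHCB1.4 on chromosome 2 made 25.8% ± 0.733 in pifq dark mock, against 9.88% ± 1.96 in WT dark mock. In the LHCB4 family, LHCB4.3 made 0.313% ± 0.0300 in pifq dark mock, against 1.34% ± 0.289 in WT dark mock.

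Among photosystem subunits, PSAH-1 made 34.4% ± 0.439 of the PSAH counts in WT light mock, against 62.8% ± 5.22 in WT dark mock, and per kilobase PSAH2 had 774 ± 50.6 CPM per kb in WT light mock, against 48.5 ± 9.72 in WT dark mock, while PSAH-1 had 219 ± 9.96 in WT light mock, against 45.4 ± 14.9 in WT dark mock. PSAE-2 made 51.3% ± 1.27 of the PSAE counts in WT light mock, against 74.2% ± 0.337 in WT dark mock. In the PSBO pair, PSBO1 made 74.4% ± 2.14 in WT light mock, against 91.3% ± 0.242 in WT dark mock. Of the RBCS counts, RBCS1A made 77.3% ± 0.958 in pifq dark ABA, against 55.2% ± 1.79 in pifq dark mock, and RBCS1B made 0.823% ± 0.195 in pifq dark ABA, against 4.87% ± 1.03 in pifq dark mock.

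Copies that share sequence can exchange reads, and the sources used here do not say how such reads were counted. Of all 100-base windows in the exons, 13.7% of those of LHCB2.2, 10.7% of LHCB2.1, 11.8% of RBCS3B and 8.2% of RBCS1B occur again elsewhere in the genome, and 1.51% to 4.44% in the LHCB1 copies, while RBCS1A and RBCS2B have none. LHCB1.5, with 0 counts, has 4.23% of its windows repeated and 100% of its exon bases under exons on the opposite strand, those of AT2G08665, also at 0 counts, and AT2G34410, with 10891 counts over the 24 libraries. PSAG has 61.4% of its exon bases under an opposite-strand gene, AT1G55673, which had 0 counts, and PSAH-1 has 53.3%, LHCB2.3 40.6%, PSAE-1 34.1%, PSAH2 24.8% and LHCB6 20.4%, with under 15% in each other gene. The strand setting of the counting is not given either, so the values of PSAG, PSAH-1, LHCB2.3, PSAE-1, PSAH2, LHCB6 and LHCB1.5 are uncertain.

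**Figure D5:**
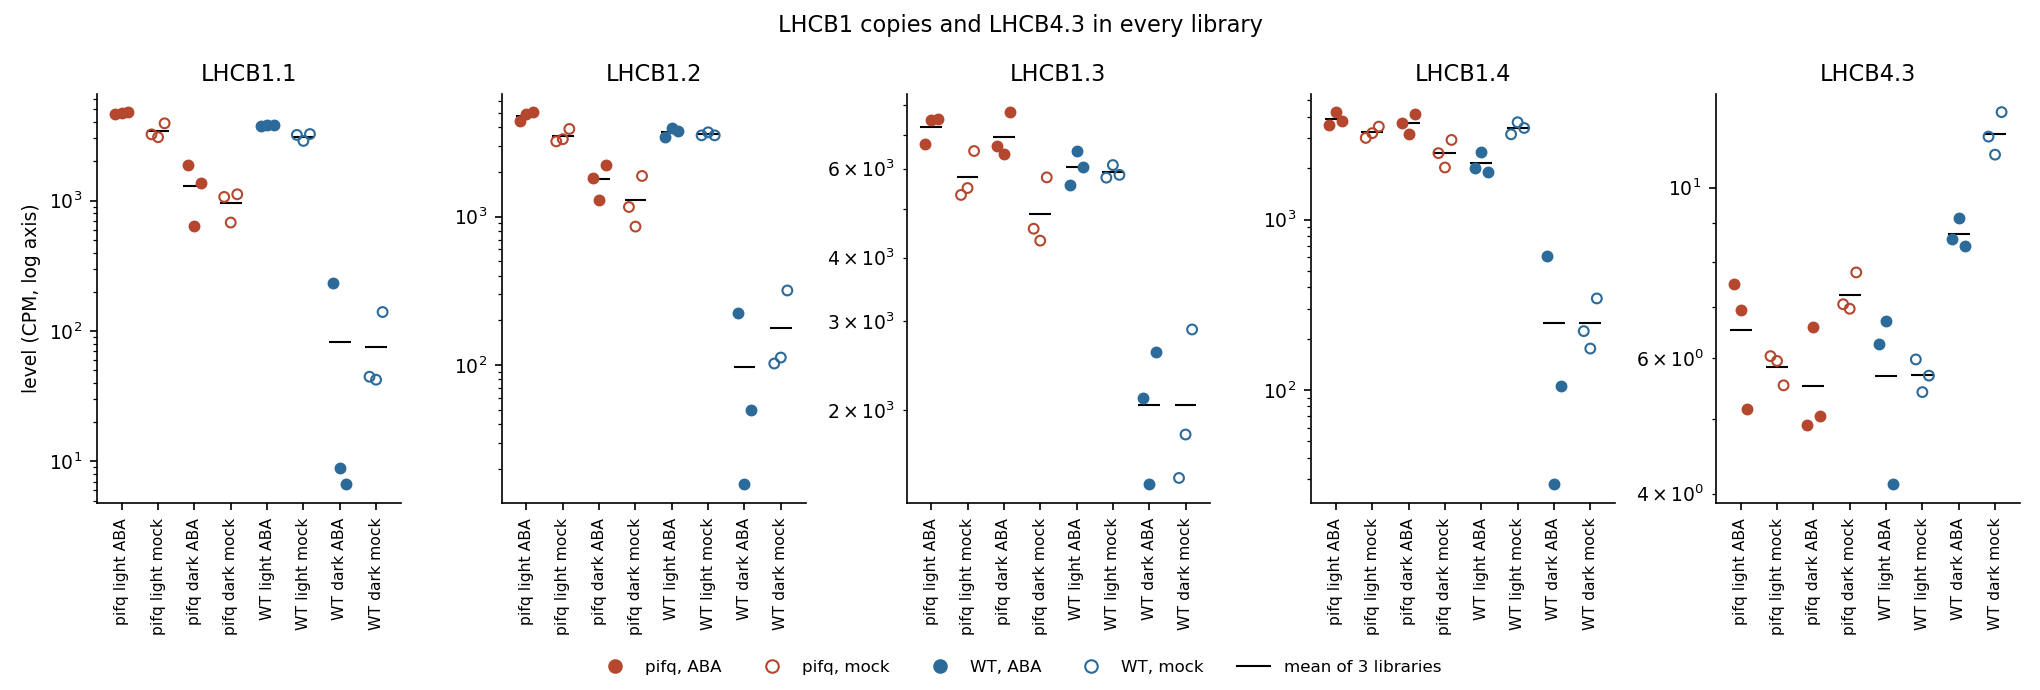
Levels of 4 LHCB1 copies and of LHCB4.3 in every library (CPM, log axis), by group. Points are libraries (filled for ABA, open for mock) and lines are means of 3; LHCB1.1 in WT dark ABA has 233, 8.90 and 6.66 CPM, and LHCB4.3 is highest in WT dark mock, at 11.7, 11.0 and 12.5 CPM.

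Other nuclear genes of photosynthesis moved in the same comparisons. Of 11 genes of electron transport and the ATP synthase, 10 rose in pifq over WT in dark mock, where 23.5% of all genes rose (median 1.56), led by FNR2, a ferredoxin-NADP reductase (2.1 ± 0.21), while FD1, a minor ferredoxin, did not pass (0.16 ± 0.16). All 14 Calvin-Benson cycle genes rose (median 1.12), from CP12-2, a regulator of the cycle (0.37 ± 0.14), to HCEF1, the plastid fructose-bisphosphatase (1.84 ± 0.23). Of 12 genes for antenna insertion, Rubisco assembly and state transitions 10 rose (median 0.91), with the Rubisco chaperones RbcX1 and RbcX2 at the ends (2.81 ± 0.88 for RbcX1, which rose, and 0.14 ± 0.13 for RbcX2, which did not pass). In light over darkness in WT mock all 11, 14 and 12 genes rose, where 32.7% of all genes rose, with medians of 2.62, 2.69 and 1.73. In pifq mock they all rose too, where 29% of all genes rose, with medians of 1.42, 1.68 and 0.91. ABA in pifq darkness called 1 Calvin-Benson gene higher and 2 lower of 14, where 26% of all genes rose and 22.7% fell (changes of CP12-1 0.33 ± 0.08, RCA -0.50 ± 0.19, AT3G60750 -0.43 ± 0.10), and in WT darkness 5 of the 12 insertion and assembly genes and 3 of the 14 Calvin-Benson genes rose and 1 of the 11 electron transport genes fell, where 22.8% of all genes rose and 17.5% fell (of the first list, STN7 0.62 ± 0.22, RbcX2 0.56 ± 0.13, CPSRP54 0.39 ± 0.13, CPFTSY 0.36 ± 0.09, ALB3 0.33 ± 0.10). Between pifq and WT in light mock 5 of the 12 insertion and assembly genes rose, where 5.64% of all genes rose: the chaperonin genes CPN60B (0.61 ± 0.16) and CPN60A (0.59 ± 0.15), CPSRP54 (0.47 ± 0.13), AT3G47650 (0.44 ± 0.14) and CPFTSY (0.34 ± 0.09). There edgeR called 0 genes of each of the other lists, 1 of each had an unadjusted p under 0.05, and DESeq2 called 0.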

How the data were processed

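The deposited table holds raw read counts per gene for 24 libraries, 3 biological replicates in each of 8 groups of whole seedlings. Per the labels' protocols, the libraries are stranded and were read as paired ends on DNBSEQ. Per the submitters' processing notes, FastQC, STAR, SAMtools, DESeq2 and TAIR10 were used. The sources used here do not give the counting program, its strand setting or the annotation release.

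Of 32833 genes, 4822 had no count, and 20828 passed edgeR's filterByExpr and were tested. Counts were fitted with edgeR 4.0.16 (limma 3.58.1, R 4.3.3), using TMM scaling and a robust quasi-likelihood fit with 1 mean per group over all 24 libraries. Standard errors are the log2 change divided by the square root of F. P-values were Benjamini-Hochberg adjusted over all genes tested, and the threshold was 0.05. CPM values are counts divided by the TMM-scaled library size, computed from the deposited counts, and 1 count equals 0.0729 CPM in the smallest library. The floor for 0 counts covers counting error only. The scripts were tested on simulated data.

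The members and lists were chosen with earlier results of these data known. Named genes were drawn from a fixed rule: for each 2-group comparison the tested gene with the highest and the lowest change within each of 5 classes, the 2 highest and 2 lowest for each interaction, genes called against the prevailing direction, all 4 RBCS genes the paralogous sets, and the highest and lowest gene of each pathway list. Not all of these are printed, and others that are named were chosen after their values were seen.

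The labels give the groups the same replicate numbers. Same-numbered libraries deviated together in every pair (correlation of deviations over 0.1) for pifq and WT in dark mock (r of 0.134, 0.146 and 0.321) and in light ABA (r of 0.393, 0.513 and 0.338), and not for the other comparisons. The alternatives were RLE factors, library totals with and without the members, no filter, DESeq2 1.42.0, a fit of the compared groups alone, a replicate block, and leaving out each library. A fit of the compared groups without replicate 1 of WT dark ABA was added after seeing the data. Exon lengths and promoter windows were read from TAIR10.1 by locus tag, and figures were drawn with matplotlib 3.10.9.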

Additional observations from a re-analysis of the deposited data

Results flagged for a closer look

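The light response differed between the genotypes without ABA by the interaction test (pifq minus WT), with 1 gene called higher and 42 called lower of the 46, where 6.64% of all genes were called higher and 11.8% lower. LHCB4.3 was the gene called higher, at 0.73 on the log2 scale, and the lowest values were those of LHCB2.2 (-3.55) and LHCB1.1 (-3.53).

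The ABA response differed between light and darkness by the interaction test (light minus dark) for single genes. Age and length of ABA treatment differed between these settings too. In pifq 3 genes of the 46 were called higher, where 9.02% of all genes were: RBCS1B (2.43), RBCS2B (1.29) and RBCS3B (0.99). In WT 1 gene of the 46 was called higher, RBCS1B (2.28), where 5.89% of all genes were. Both counts are a smaller share of the 46 genes than of all genes.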

How the results depend on the processing

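The counts of called genes for pifq over WT in darkness, for light over darkness, for dark pifq over light WT and for the genotype by light interaction stayed within 1.5 times their value under every alternative run. In these comparisons no count or named gene reversed direction. For the other comparisons the cause of each move was not tested. The share of all genes called in the same direction under the same alternative stands in parentheses. ABA in WT darkness lowered 6 genes, but 14 with library totals alone (24.4%), 14 with totals without the members (24.6%) and 3 in the compared groups alone (19.6%). ABA in WT light lowered 1 gene, but 5 with either kind of totals (25.8% and 26.9%) and 7 in the compared groups alone (20.1%), also with a replicate block there (20.7%). In pifq darkness ABA raised 4 genes, but 2 with RLE factors (23.7%), 1 with either kind of totals (17.2% and 17.5%), 7 in the compared groups alone (21.1%) and 12 there with the replicate block (23.6%). In pifq light ABA raised 6 genes, but 2 with either kind of totals (15.8% and 16.2%), 10 with the replicate block over all libraries (24.3%), 15 in the compared groups alone (20.9%) and 27 there with the block (23.5%). For pifq over WT in light ABA the count of 0 was 1 with DESeq2 (1.26%), 1 with the block over all libraries (0.85%), 3 in the compared groups alone (0.468%) and 44 there with the block (12.5%). The ABA by light interaction in WT called 1 gene and 3 in the compared groups without replicate 1 of WT dark ABA (7.02%). In pifq it called 3 genes, 5 in the compared groups alone (9.01%) and 6 there with the block (9.16%). The ABA by genotype interaction called 0 genes, but 2 in darkness without that library in the compared groups (5.1%), and 1 in light with the block in the compared groups (0.271%).

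As single libraries were left out, the count ran from 2 to 18 for ABA in WT darkness, 1 to 2 in WT light, 0 to 8 in pifq darkness and 1 to 11 in pifq light, 0 to 1 for pifq over WT in light ABA, 1 to 5 for the ABA by light interaction in WT and 0 to 8 for the ABA by genotype interaction in darkness. The share of all genes called in these fits is not given. Scaling by totals alone moved the median of all genes, for example to -0.29 for light over darkness in pifq ABA, against -0.07, and to -0.12 for ABA in pifq darkness, where the median of the 46 genes was -0.02, against 0.13. In dark mock, where same-numbered pifq and WT libraries deviated together, the block in the compared groups changed no call but that of RBCS2B. The labels give replicate numbers and no pairing. In dark mock and light ABA the block thus rests on the number and on correlations in these same data. In the other comparisons it rests on the number alone. The wide spread in dark WT and repeated or overlapping exons limit the LHCB1, LHCB2, LHCB6, RBCS, PSAE, PSAG and PSAH values.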
